A study of Mus musculus with 4 samples.

Results

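The mitochondrial protein import genes are the nuclear genes that encode the machinery bringing proteins into mitochondria. They were taken as the protein-coding mouse genes whose symbol starts with Timm or Tomm, together with Hspd1, Hspe1, Hspa9, Samm50, Mtx1, Mtx2, Pmpca and Pmpcb. This gave 34 genes of the 43346 gene identifiers counted, and 31 of the 34 had enough reads to be tested among 16009 genes. They were measured by RNA sequencing of whole hearts from newborn mice at postnatal day 0. The series holds 2 libraries from MRTFA/B double knockout animals with the strain background given as Mixed, and 2 libraries from wild type animals of strain background ICR. MRTFA and MRTFB are myocardin-related transcription factors, coactivators of serum response factor that act on cytoskeletal and contractile genes. The knockout alleles, any Cre driver, the cells in which the genes were removed and any pooling of animals are not stated in the sources used here. Genotype and strain background cannot be told apart, since each group has its own background.

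Nearly all mitochondrial proteins are made in the cytosol and cross the outer membrane through the TOM complex. From there the SAM complex inserts barrel-shaped proteins into the outer membrane, the small TIM chaperones escort hydrophobic proteins between the membranes, the TIM22 complex inserts carriers into the inner membrane, and the TIM23 complex with its motor passes proteins with a presequence into the matrix. In the matrix a processing peptidase removes the presequence and a chaperonin folds the protein, and the heart, whose muscle cells are packed with mitochondria, depends on this route for its respiratory enzymes.

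Total counts were 27328195 and 16175259 in double knockout libraries 1 and 2, against 29460641 and 25205257 in wild type libraries 1 and 2. Levels are in CPM, counts scaled to library size with TMM factors. Across genes, log CPM correlated at 0.978 within the double knockout pair and at 0.992 within the wild type pair, and double knockout library 2 was the shallowest. Mrtfa had 3.35 and 2.26 CPM in the double knockout, against 9.06 and 11.1 CPM in wild type (log2 fold change -1.82, SE 0.26, adjusted p 0.12 in edgeR and 1.25e-05 in DESeq2). Mrtfb overlapped between the groups with 46.0 and 49.6 CPM in the double knockout, against 46.9 and 56.8 CPM in wild type. Counts over a whole gene do not show whether part of it was deleted, so these levels check the knockout only in part. The summed level of 14 cardiomyocyte markers was 66415.8 and 62390.0 CPM in the double knockout, against 71932.0 and 69667.2 CPM in wild type, so the libraries hold heart muscle as labelled. None of the skeletal muscle, liver, lung or thymus lists summed to more than 10.2 CPM in any library.

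The import genes were lower in the double knockout hearts as a group, by small amounts. The log2 fold change, double knockout over wild type, was negative for 29 of the 31 tested genes, against 48.7% of all genes tested. Its median over the 31 genes was -0.39, with a range from -0.69 for Timm8a1 to 0.25 for Tomm34, and the median over all genes tested was 0.01. Both double knockout libraries lay below both wild type libraries in 28 of the 31 genes, an arrangement found in 25.2% of all genes tested. They lay above both wild type libraries in Tomm20 and Tomm34, against 25.8% of all genes, and Timm29 overlapped. Taken alone against the wild type mean, double knockout library 1 gave a median log2 difference of -0.34 and library 2 gave -0.38. Import genes took 0.256% and 0.248% of all counts in the double knockout, against 0.326% and 0.292% in wild type.

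No single import gene passed the main test, the quasi-likelihood test of edgeR with a Benjamini-Hochberg adjusted p under 0.05 over all genes. That test called 0.0625% of all genes lower and 0.0125% higher, and the smallest adjusted p of an import gene was 0.15. At an unadjusted p under 0.05, 18 of the 31 were lower, against 8.63% of all genes, and 0 were higher, against 8.70% of all genes. DESeq2, run as an alternative, called Timmdc1 and Hspd1 lower and no import gene higher, where it called 1.86% of genes lower and 2.08% higher. Leaving out 1 double knockout library raised the count of import genes past the edgeR threshold to 11 (without library 1, with 8.13% of all genes lower) or 5 (without library 2, with 4.46%), and the edgeR fit with no filter on low counts gave 9, with 3.15% of all genes lower. Because the libraries come from whole hearts, fewer cells of a type and less RNA per cell cannot be told apart in any of these values.

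**Figure D1:**
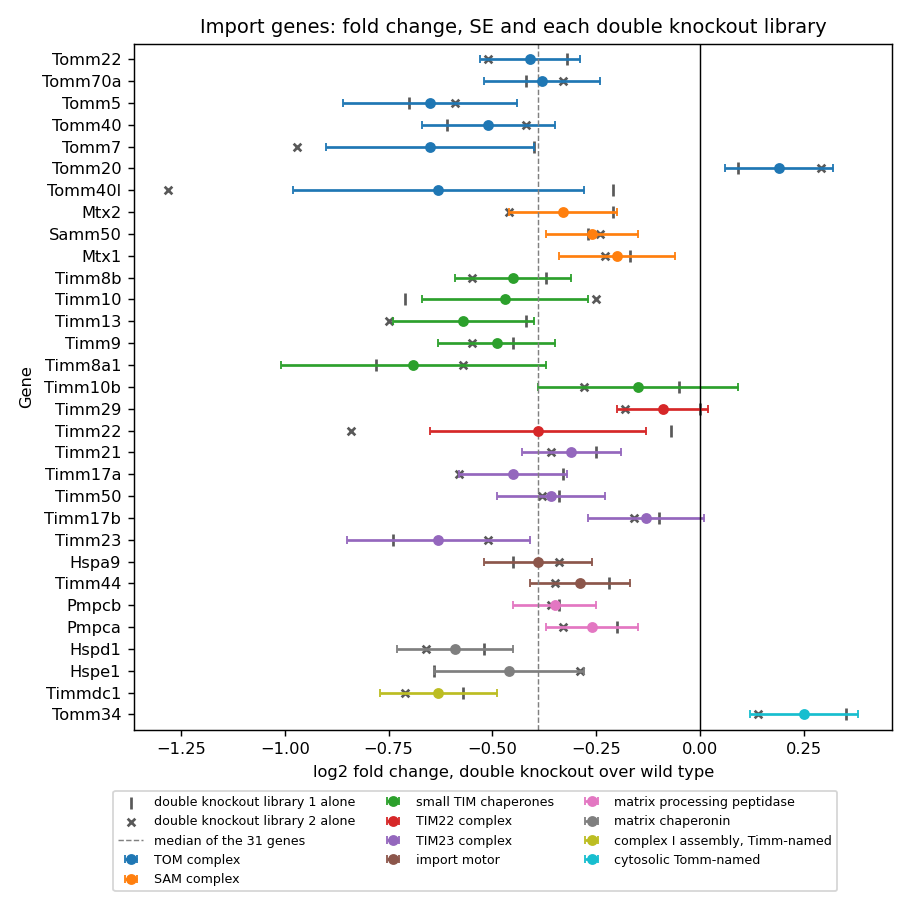
Log2 fold change (double knockout over wild type, x axis) of each tested import gene (y axis, coloured by role); bars are the SE of the edgeR fit, tick marks and crosses are double knockout libraries 1 and 2 alone against the wild type mean, and the dashed line is the median of the 31 genes. Of the 31 points, 29 lie left of 0 around a median of -0.39, and Tomm20 and Tomm34 lie right of it.

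The start regions of 2 genes are shown because their log2 fold changes differ in sign. Timmdc1 had the smallest p, and Tomm20, a receptor of the TOM complex, was higher in both double knockout libraries. The difference in Tomm20 was small (log2 fold change 0.19, SE 0.13, edgeR adjusted p 0.487). With the reads of its pseudogene Gm14494 added, the groups overlapped. The region of Tomm22 is added because it shares its motif with Timmdc1. Each is the stretch before the annotated start, read 5′ to 3′ on the gene's own strand from the promoter windows of RefSeq on GRCm38.p6: chr16:38522664-38522913, minus strand, for Timmdc1, chr15:79670618-79670860, plus strand, for Tomm22 and chr8:126945922-126946171, minus strand, for Tomm20. Capitals mark matches to CCGGAAG, the core bound by the ETS factor GABPA, on either strand in Timmdc1 and Tomm22, and in Tomm20 a match to the motif of NRF1 (GCGCA, any base, then GCGC), which lies on the strand opposite to the one shown.
Timmdc1: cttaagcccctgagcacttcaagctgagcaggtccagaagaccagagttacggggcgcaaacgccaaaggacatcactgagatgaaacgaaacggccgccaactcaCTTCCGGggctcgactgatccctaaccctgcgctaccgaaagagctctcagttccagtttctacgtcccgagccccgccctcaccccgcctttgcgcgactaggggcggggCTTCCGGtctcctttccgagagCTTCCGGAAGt
Tomm22: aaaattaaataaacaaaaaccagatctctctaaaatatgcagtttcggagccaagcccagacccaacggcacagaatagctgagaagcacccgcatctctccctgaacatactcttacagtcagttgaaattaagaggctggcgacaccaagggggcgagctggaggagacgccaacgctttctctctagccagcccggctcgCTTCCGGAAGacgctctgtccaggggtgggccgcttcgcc
Tomm20: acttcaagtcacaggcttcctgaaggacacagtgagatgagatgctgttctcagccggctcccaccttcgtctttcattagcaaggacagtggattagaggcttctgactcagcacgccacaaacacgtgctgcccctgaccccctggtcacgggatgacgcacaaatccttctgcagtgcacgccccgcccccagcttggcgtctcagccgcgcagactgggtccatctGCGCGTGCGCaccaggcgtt
In Timmdc1 there are 4 matches and in Tomm22 there are 2, and the run CTTCCGGAAG holds 2 overlapping matches, 1 on each strand.

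Windows from 250 bases before to 50 bases after the annotated start were searched on both strands for 30 of the 34 genes, with Hspa9, Timm21, Tomm40l and Tomm7 not searched. GABPA's CCGGAAG was found in 16 of the 30 genes, and in 17 of their 33 windows, or 51.5%, against 8.9% of 32851 windows of all genes and 11.6% of 21263 windows of protein-coding genes. These 16 were Hspd1, Hspe1, Mtx1, Mtx2, Pmpca, Pmpcb, Timm10, Timm10b, Timm23, Timm29, Timm8a2, Timm8b, Timmdc1, Tomm22, Tomm34 and Tomm70a. NRF1's motif was found in Hspd1, Timm8b and Tomm20, or 9.1% of the 33 windows, against 4.6% of all windows and 6.4% of protein-coding windows. Of these genes, Hspd1 and Timm8b had negative log2 fold changes (-0.59 and -0.45) and Tomm20 a positive one (0.19). AANATGGCG, a motif of YY1, was found in 4 genes (Mtx1, Samm50, Timm44 and Timm50), or 12.1% of the windows, against 2.4% of all windows and 3.1% of protein-coding windows. AAGGTCA, the motif of the oestrogen-related receptors (ERR), was found in 5 genes (Hspd1, Hspe1, Timm23, Timm44 and Timm8b), or 15.2% of the windows, against 4.7% of all windows and 4.1% of protein-coding windows. The CArG box, the motif of serum response factor, had no match in the windows of the 30 genes, and 1.6% of all windows held it. Matches describe letters in these windows and are not sites of binding. Among the tested genes with GABPA's motif, Tomm34 was higher in the double knockout and the others had a negative log2 fold change. Whether any motif goes with the fold changes was not tested.

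Hspd1 and Hspe1, which encode the matrix chaperonin and its lid, lie head to head on chromosome 1, and their annotated 5′ ends overlap by 112 bases. Their shared ERR match is shown because it falls in the RefSeq start window of Hspe1 and in that of an alternative start of Hspd1. It lies at chr1:55088094-55088123, plus strand of GRCm38.p6 as RefSeq gives it, with the match in capitals.
Hspe1 and Hspd1 site: gggtgaAAGGTCAagtggcgtcatttccgg
Hspd1 had 155 and 140 CPM in double knockout libraries 1 and 2, against 246 and 199 CPM in wild type libraries 1 and 2. Both double knockout libraries were below both wild type libraries, with wild type library 1 the highest. The log2 fold change was -0.59 (SE 0.14), with an adjusted p of 0.159 in edgeR and of 0.0405 in DESeq2, so Hspd1 fell by DESeq2 and did not pass the main test. Hspe1 had 24.7 and 31.4 CPM in the double knockout, against 43.1 and 33.6 CPM in wild type. Here double knockout library 2 came close to wild type library 2, and the log2 fold change was -0.46 (SE 0.18, edgeR adjusted p 0.287). The ratio of Hspd1 to Hspe1 per kilobase of exon was 3.51 and 2.49 in the double knockout, against 3.18 and 3.30 in wild type, so the ratios overlapped. This pair and that of the peptidase subunits were added after the values were seen. The ratio of Hspd1 to Hspe1 is uncertain, because both genes have a near-identical stretch in another gene. Hspd1-ps3 matches Hspd1 at 99.0% over 1722 bases, and AC117239.2 matches Hspe1 at 99.0% over 515 bases.

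Timmdc1, named for its likeness to the TIM17 and TIM23 proteins and known as an assembly factor of respiratory complex I, lies at chr16:38498347-38522663 of mm10. It had 29.6 and 26.8 CPM in the double knockout, against 47.0 and 40.5 CPM in wild type. The double knockout libraries agree closely with each other and both stand well below the wild type pair. Its log2 fold change was -0.63 (SE 0.14), a ratio of 0.644, with an adjusted p of 0.15 in edgeR and 0.0315 in DESeq2, so Timmdc1 fell by DESeq2 and did not pass the main test. It had no near-identical copy and shared no exon base with another gene.

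**Figure D2:**
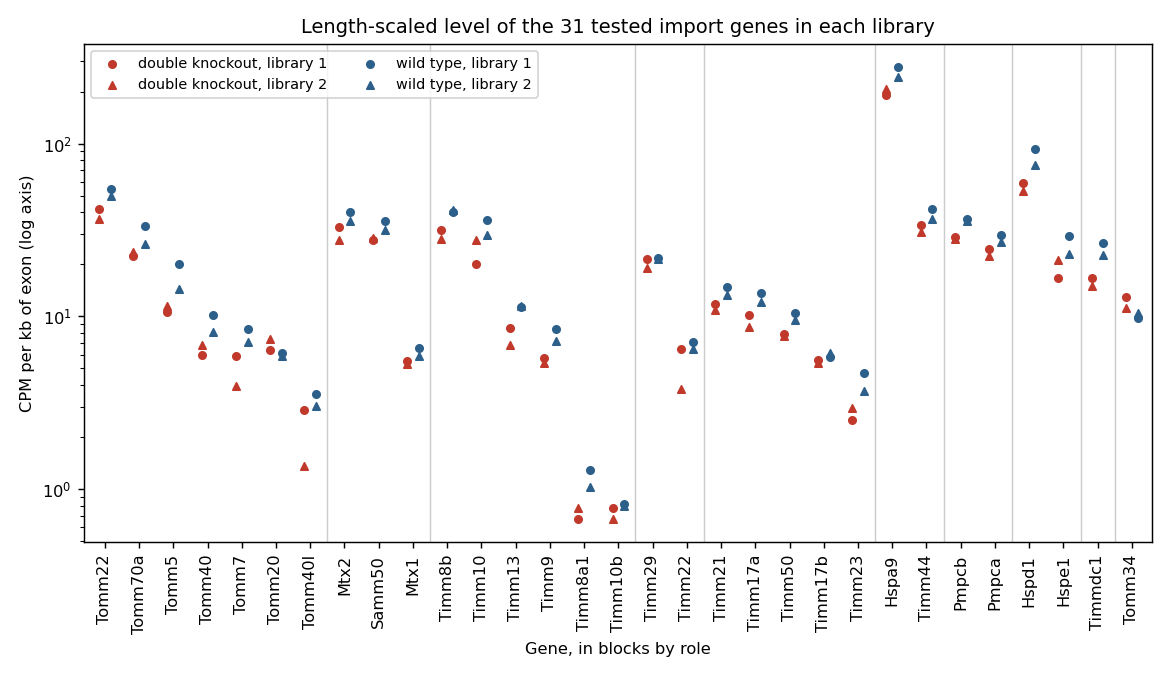
Level of each tested import gene in CPM per kilobase of exon (y axis, log scale) in double knockout libraries 1 and 2 (red) and wild type libraries 1 and 2 (blue), in blocks by role from left to right (TOM, SAM, small TIM, TIM22, TIM23, motor, peptidase, chaperonin, Timmdc1, Tomm34). Hspa9 is the highest in every library, Timm10b and Timm8a1 are the lowest, and red points lie below blue points in 28 of the 31 genes.

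Length-scaled levels spanned a wide range, from means of 198 CPM per kilobase of exon in the double knockout and 260 in wild type for Hspa9 to means of 0.722 in the double knockout and 0.807 in wild type for Timm10b. The level of Timm10b is uncertain, because 22.1% of its exon bases are shared with other genes. The median over the 31 genes was 11.4 CPM per kilobase in the double knockout and 14.1 in wild type. After Hspa9 the highest means were those of Hspd1, at 56.0 in the double knockout and 84.1 in wild type, and of Tomm22, at 39.4 in the double knockout and 52.3 in wild type. Of the 31 genes, 29 had at least 50 counts in every library, and the lowest count was 18.

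The TOM complex had 7 tested genes, 6 of them lower in both double knockout libraries, with a median log2 fold change of -0.51. Tomm40, the channel of the outer membrane, had 27.0 and 31 CPM in the double knockout, against 45.8 and 36.7 CPM in wild type. Both double knockout libraries were lower than either wild type library (log2 fold change -0.51, SE 0.16, edgeR adjusted p 0.203). Tomm22, the central receptor that docks other receptors to the channel, had 69.4 and 60.6 CPM in the double knockout, against 90.5 and 82.3 CPM in wild type (log2 fold change -0.41, SE 0.12, edgeR adjusted p 0.193). Tomm70a, the receptor for carrier proteins delivered by cytosolic chaperones, had 217 and 230 CPM in the double knockout, against 324 and 255 CPM in wild type. Most of that difference lay with wild type library 1, and the log2 fold change was -0.38 (SE 0.14, edgeR adjusted p 0.269).

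Tomm20, the receptor for presequences, went the other way. It had 31.4 and 36.0 CPM in the double knockout, against 30 and 28.9 CPM in wild type. Both double knockout libraries were higher, by little, and the log2 fold change was 0.19 (SE 0.13, edgeR adjusted p 0.487). With the reads of its pseudogene Gm14494 added, the levels were 45 and 50.3 CPM in the double knockout, against 46.1 and 43.9 CPM in wild type, which overlap, and the log2 fold change was 0.08 (SE 0.12). The groups thus stood apart for Tomm20 without the reads of its copy and overlapped with them.

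The small subunits of the TOM complex, which stabilise the channel, had wider errors. Tomm5 had 9.17 and 9.91 CPM in the double knockout, against 17.4 and 12.4 CPM in wild type (log2 fold change -0.65, SE 0.21, edgeR adjusted p 0.219). Tomm7 had 6.63 and 4.47 CPM in the double knockout, against 9.48 and 8.04 CPM in wild type (log2 fold change -0.65, SE 0.25, edgeR adjusted p 0.270). Double knockout library 2 was the lowest for Tomm7, and in both genes the groups did not overlap. Tomm40l, a gene similar to Tomm40, had 14.7 and 6.97 CPM in the double knockout, against 18.3 and 15.6 CPM in wild type. Only library 2 of the double knockout stood clearly apart (log2 fold change -0.63, SE 0.35, edgeR adjusted p 0.419), and 64.3% of the exon bases of Tomm40l are shared with Nr1i3 on the opposite strand. The ratio of Tomm40 to Tomm40l per kilobase was 2.09 and 5.05 in the double knockout, against 2.85 and 2.67 in wild type, so the double knockout libraries lay on either side of wild type.

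Tomm6, Tomm20l and Timm8a2 were too low to test. Tomm6, another small TOM subunit, had 1 and 0 counts in the double knockout, against 0 and 0 counts in wild type, with 84.2% of its exon bases shared with other genes. Tomm20l, a gene similar to Tomm20, had 1 and 1 counts in the double knockout, against 13 and 5 counts in wild type, and its 3′ end overlaps that of Timm9 by 49 bases. Timm8a2 had 0 and 1 counts in the double knockout, against 0 and 0 counts in wild type. These 3 genes enter none of the counts of fold changes, and no ratio to Tomm20l was formed.

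The SAM complex had a median log2 fold change of -0.26 over its 3 genes. Samm50, the core barrel protein, had 182 and 186 CPM in the double knockout, against 234 and 206 CPM in wild type (log2 fold change -0.26, SE 0.11, edgeR adjusted p 0.322). Mtx2, a metaxin that works with Samm50, had 120 and 101 CPM in the double knockout, against 147 and 131 CPM in wild type (log2 fold change -0.33, SE 0.13, edgeR adjusted p 0.285). Mtx1, its partner metaxin, had 19.7 and 18.9 CPM in the double knockout, against 23.4 and 21 CPM in wild type (log2 fold change -0.20, SE 0.14, edgeR adjusted p 0.493). Of the exon bases of Mtx1, 30.1% are shared with other genes. In all 3 genes both double knockout libraries were below both wild type libraries, by margins no larger than the gap within the wild type pair.

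The small TIM chaperones of the intermembrane space had 6 tested genes, all lower in both double knockout libraries, with a median log2 fold change of -0.48. Timm9 had 24.6 and 22.9 CPM in the double knockout, against 36.3 and 30.7 CPM in wild type (log2 fold change -0.49, SE 0.14, edgeR adjusted p 0.188). Timm10, which forms a hexamer with Timm9, had 16.3 and 22.4 CPM in the double knockout, against 29.4 and 24.1 CPM in wild type. Its double knockout library 2 came close to wild type library 2 (log2 fold change -0.47, SE 0.20, edgeR adjusted p 0.300). Timm13 had 11.7 and 9.30 CPM in the double knockout, against 15.5 and 15.8 CPM in wild type (log2 fold change -0.57, SE 0.17, edgeR adjusted p 0.202). Timm8b, of the same family as the Timm8a1 protein that pairs with Timm13, had 16.3 and 14.4 CPM in the double knockout, against 20.9 and 21.3 CPM in wild type (log2 fold change -0.45, SE 0.14, edgeR adjusted p 0.203). In Timm13 and Timm8b the wild type libraries lay close together and the double knockout libraries were clearly below.

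Timm8a1, the mouse counterpart of the human deafness-dystonia gene, had 0.952 and 1.1 CPM in the double knockout, against 1.83 and 1.45 CPM in wild type. Its counts were low, 27 and 18 in the double knockout and 52 and 36 in wild type, and its log2 fold change of -0.69 carried the widest error of this class (SE 0.32, edgeR adjusted p 0.337). The pseudogene Gm9797, identical over 612 bases, took 50% and 48.6% of the reads of gene and copy together in the double knockout, against 42.9% and 53.2% in wild type. The ratio of Timm8b to Timm8a1 per kilobase was 47.0 and 36.0 in the double knockout, against 31.3 and 40.4 in wild type, with the groups overlapping. Timm10b, associated with the TIM22 complex, had 2.79 and 2.39 CPM in the double knockout, against 2.93 and 2.85 CPM in wild type (log2 fold change -0.15, SE 0.24, edgeR adjusted p 0.786).

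The 2 genes of the TIM22 complex had a median log2 fold change of -0.24. Timm22, the channel-forming subunit for carriers, had 20.6 and 12.1 CPM in the double knockout, against 22.6 and 20.7 CPM in wild type. Double knockout library 1 was nearly level with wild type and library 2 alone was low (log2 fold change -0.39, SE 0.26, edgeR adjusted p 0.483). Timm29, another subunit, had 68.6 and 60.6 CPM in the double knockout, against 69.3 and 68.0 CPM in wild type, and it was the only tested import gene whose groups overlapped (log2 fold change -0.09, SE 0.11, edgeR adjusted p 0.729).

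The TIM23 complex had 5 genes, all lower in both double knockout libraries, with a median log2 fold change of -0.36. Timm23, the core subunit of the inner membrane channel, had 4.48 and 5.26 CPM in the double knockout, against 8.42 and 6.55 CPM in wild type (log2 fold change -0.63, SE 0.22, edgeR adjusted p 0.248). Its level is uncertain, because Gm10273 matches it at 99.9% over 1121 bases, although Gm10273 had 0 counts in every library. With the reads of 4 pseudogene copies of Timm23 added, the log2 fold change was -0.59 (SE 0.22). Timm50, the receptor that takes presequences from the TOM complex, had 21.2 and 20.6 CPM in the double knockout, against 28.1 and 25.5 CPM in wild type (log2 fold change -0.36, SE 0.13, edgeR adjusted p 0.250). Timm21, which links the complex to TOM and to the respiratory chain, had 43.9 and 40.7 CPM in the double knockout, against 55.1 and 49.5 CPM in wild type (log2 fold change -0.31, SE 0.12, edgeR adjusted p 0.273). For Timm50 and Timm21 the double knockout libraries were close together and below both wild type libraries.

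Timm17a and Timm17b are alternative subunits of the TIM23 channel. Timm17a had 80.8 and 68.1 CPM in the double knockout, against 107 and 95.7 CPM in wild type (log2 fold change -0.45, SE 0.13, edgeR adjusted p 0.192). Timm17b had 14.3 and 13.6 CPM in the double knockout, against 14.9 and 15.7 CPM in wild type (log2 fold change -0.13, SE 0.14, edgeR adjusted p 0.687). Per kilobase, the ratio of Timm17a to Timm17b was 1.83 and 1.62 in the double knockout, against 2.34 and 1.98 in wild type. Both ratios in the double knockout were below both in wild type, and the smallest two-sided p that an exact permutation test of 2 against 2 libraries can give is 0.333. The copy Gm7180 of Timm17a took 9.77% and 14.7% of the reads of gene and copy in the double knockout, against 8.49% and 9.74% in wild type.

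The import motor holds the most abundant transcript of the route. Hspa9, the mitochondrial Hsp70 that pulls the chain into the matrix, had 820 and 889 CPM in the double knockout, against 1200.8 and 1043.6 CPM in wild type. Both double knockout libraries were below both wild type libraries (log2 fold change -0.39, SE 0.13, edgeR adjusted p 0.224). Timm44, which tethers Hspa9 to the channel, had 124 and 113 CPM in the double knockout, against 154 and 135 CPM in wild type (log2 fold change -0.29, SE 0.12, edgeR adjusted p 0.297). The same arrangement of libraries was seen for Timm44.

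The processing peptidase that removes presequences was lower by similar amounts in both subunits. Pmpcb, the catalytic subunit, had 147 and 145 CPM in the double knockout, against 189 and 183 CPM in wild type, with libraries of a group close together (log2 fold change -0.35, SE 0.10, edgeR adjusted p 0.190). Pmpca, the subunit that recognises the presequence, had 105 and 96.1 CPM in the double knockout, against 126 and 115 CPM in wild type (log2 fold change -0.26, SE 0.11, edgeR adjusted p 0.300). The ratio of Pmpca to Pmpcb per kilobase was 0.856 and 0.799 in the double knockout, against 0.8 and 0.757 in wild type, so the ratios overlapped. For Pmpca, 20.4% of exon bases are shared with Inpp5e on the opposite strand.

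Tomm34, which carries a Tomm name and encodes a cytosolic co-chaperone of Hsp70 and Hsp90, had the most positive fold change. It had 39.3 and 34.0 CPM in the double knockout, against 29.6 and 32.1 CPM in wild type. Both double knockout libraries were higher, and library 2 only slightly (log2 fold change 0.25, SE 0.13, edgeR adjusted p 0.388).

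The log2 fold changes of 17 of the 31 import genes lay between -0.55 and -0.25. Libraries of a group were not alike in this respect. Wild type library 1 was above wild type library 2 in 27 of the 31 genes, against 7930 of all 16009 genes tested. The import genes thus also differed together between 2 libraries of the same genotype. The summed level of the import genes was 2467.9 and 2453.8 CPM in the double knockout, against 3388.0 and 2955.6 CPM in wild type. Without wild type library 1 the median log2 fold change was -0.32, and without wild type library 2 it was -0.50. Mitochondrially encoded genes, which need no import, took 11.5% and 11.4% of counts in the double knockout, against 12.6% and 13.5% in wild type.

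Reads of several import genes can be shared with processed pseudogenes, and 12 of the 34 have a near-identical stretch in another gene. Hspd1-ps3 matches Hspd1 at 99.0% over 1722 bases and took 62.0% and 62.8% of the reads of gene and copy together in the double knockout, against 63.5% and 63.6% in wild type. The copy alone had 254 and 237 CPM in the double knockout, against 428 and 347 CPM in wild type (log2 fold change -0.66, DESeq2 adjusted p 0.0106). Gene and copy summed to 409 and 377 CPM in the double knockout, against 674 and 546 CPM in wild type, and their joint log2 fold change was -0.63 (SE 0.14, edgeR adjusted p 0.156). The level of Hspd1 is thus uncertain, while its difference between the groups was close to the same with and without the copy. Of 15 tested genes with no such stretch and under 20% of exon bases shared with another gene, 14 had a negative log2 fold change, with a median of -0.38. In 13 of them both double knockout libraries were below both wild type libraries. The shares over all genes tested were 48.7% negative and 25.2% below.

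**Figure D3:**
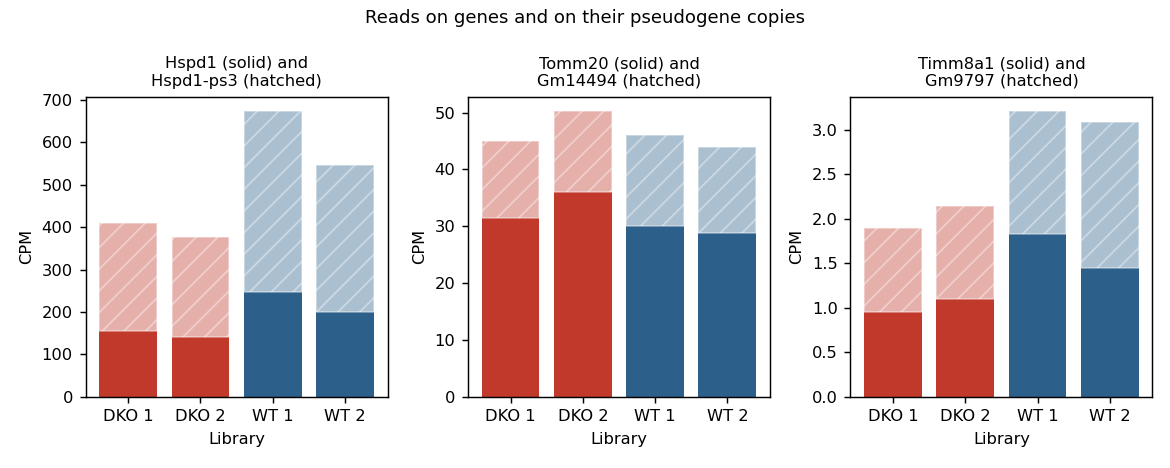
Level in CPM (y axis) of Hspd1, Tomm20 and Timm8a1 (solid) with the reads counted on their pseudogene copies (hatched, stacked) in double knockout (DKO) libraries 1 and 2 and wild type (WT) libraries 1 and 2. Hspd1 and its copy together stay lower in the double knockout, at 409 and 377 CPM against 674 and 546 CPM in wild type, while the sums for Tomm20 overlap between the groups.

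A further list of 45 genes acts beside these in import, membrane organisation, quality control and cytosolic delivery. Of these, 34 had a negative log2 fold change, with a median of -0.23, where 48.7% of all genes tested were negative. Both double knockout libraries lay below both wild type libraries in 27 genes and above in 3, against 25.2% and 25.8% of all genes. None passed edgeR's threshold. At an unadjusted edgeR p under 0.05, 13 were lower and 0 higher, against 8.63% and 8.7% of all genes. DESeq2 called 4 lower and 0 higher, where it called 1.86% of genes lower and 2.08% higher. Dnajc15, a J protein of the import motor, had 22.3 and 23.4 CPM in the double knockout, against 39.1 and 34.8 CPM in wild type (log2 fold change -0.69, DESeq2 adjusted p 0.0120). Dnaja3, a J protein of the matrix, had 90.6 and 79.1 CPM in the double knockout, against 144 and 126 CPM in wild type (log2 fold change -0.67, DESeq2 adjusted p 0.00822). In both genes the double knockout libraries were close together and well below wild type.

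The other pair that DESeq2 called belong to the membrane-organising complexes of the cristae. Minos1, a core subunit of the MICOS complex, had 58.9 and 58.1 CPM in the double knockout, against 81.2 and 84.1 CPM in wild type (log2 fold change -0.50, DESeq2 adjusted p 0.0394). Dnajc11, which associates with MICOS and the SAM complex, had 86.5 and 76.7 CPM in the double knockout, against 148 and 114 CPM in wild type (log2 fold change -0.68, DESeq2 adjusted p 0.0253). The groups did not overlap in either gene. Oma1, a stress-activated protease of the inner membrane, had 16.9 and 14.3 CPM in the double knockout, against 25 and 23.5 CPM in wild type, and missed the DESeq2 threshold (adjusted p 0.0622). Aifm1, which anchors the disulfide relay of the intermembrane space, had 102 and 116 CPM in the double knockout, against 150 and 141 CPM in wild type (DESeq2 adjusted p 0.138). Hsp90ab1, a cytosolic chaperone that delivers precursors to Tomm70a, had 1507.1 and 1891.8 CPM in the double knockout, against 1338.4 and 1377.1 CPM in wild type, higher in both double knockout libraries (log2 fold change 0.32, edgeR adjusted p 0.332), and was named after its values were seen.

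Other mitochondrial lists were lower to a like degree, and no test set the import genes apart from them. All 18 citric acid cycle genes had a negative log2 fold change, with a median of -0.39, and 16 had both double knockout libraries below both wild type libraries. DESeq2 called 4 of these 18 genes lower, beside 2 of the 31 import genes. Of 46 genes with a symbol starting with Nduf, mostly subunits and assembly factors of complex I, 44 were negative with a median of -0.44. DESeq2 called 7 of them lower. Of 76 tested genes of the mitochondrial ribosome, 67 were negative with a median of -0.29, and DESeq2 called 5 lower. These values stand beside the medians of -0.39 for the import genes and 0.01 for all genes tested. Over all genes tested, 48.7% were negative and 25.2% had both double knockout libraries below both wild type libraries. DESeq2 called 1.86% of genes lower.

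**Figure D4:**
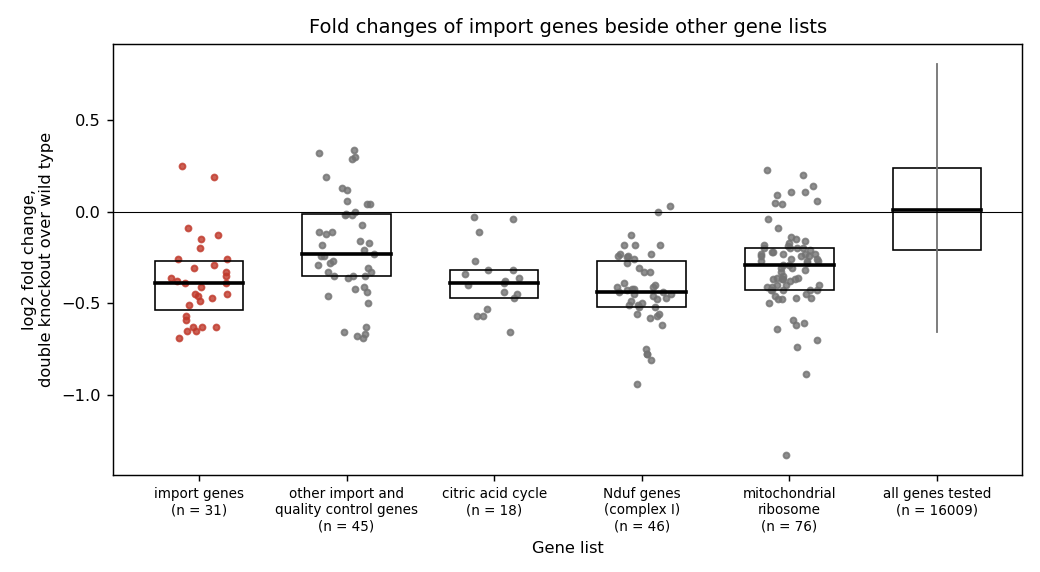
Log2 fold change (double knockout over wild type, y axis) of the genes in each list (x axis); points are genes, boxes span the quartiles, thick bars are medians, and the line for all genes tested spans the 5th to 95th percentile. Import genes have a median of -0.39, close to -0.39 for the citric acid cycle and -0.44 for Nduf genes, and all genes tested have a median of 0.01.

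Levels of cell type markers also differed between the groups. Over all genes tested, 48.7% had a negative log2 fold change, and DESeq2 called 1.86% of genes lower and 2.08% higher. Of 14 cardiomyocyte markers, 11 were lower, with a median log2 fold change of -0.18 and none past the threshold. The smooth muscle and pericyte list had 9 negative log2 fold changes of 9, with a median of -0.33 and 2 past the DESeq2 threshold, but Pdgfrb, Abcc9 and Kcnj8 were near 0, at -0.02, -0.01 and -0.04. Its summed level of 1602.4 and 1442.4 CPM in the double knockout, against 4117.0 and 2682.3 CPM in wild type, was set mostly by Acta2, the smooth muscle actin, with 535 and 439 CPM in the double knockout, against 2961.6 and 1468.1 CPM in wild type. Without Acta2 the sum was 1067.6 and 1003.1 CPM in the double knockout, against 1155.4 and 1214.1 CPM in wild type. The endothelial markers summed to 1635.6 and 1815.7 CPM in the double knockout, against 1601.3 and 1704.6 CPM in wild type, and the fibroblast markers to 3708.0 and 4801.7 CPM in the double knockout, against 4412.5 and 4734.1 CPM in wild type. Both of these overlapped. Leukocyte markers summed to 103 and 89.9 CPM in the double knockout, against 71.2 and 76.8 CPM in wild type, with 8 of 10 markers higher and Ptprc and Adgre1 lower. Epicardial markers summed to 212 and 178 CPM in the double knockout, against 158 and 150 CPM in wild type, and without Tbx18 to 134 and 129 CPM in the double knockout, against 123 and 124 CPM in wild type. Erythroid markers overlapped, at 463 and 806 CPM in the double knockout, against 752 and 554 CPM in wild type. DESeq2 called 1 leukocyte marker and 1 epicardial marker higher, and 1 erythroid marker lower. Brown fat markers summed to 21.8 and 7.71 CPM in the double knockout, against 19.7 and 20.5 CPM in wild type. Nearly all of this was Cidea. Without Cidea the sum was 0.106 and 0.122 CPM in the double knockout, against 0.0705 and 0.0804 CPM in wild type. The part of these shifts in the lower level of the import genes was not tested.

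Genotype and strain background cannot be told apart for any import gene, since each group has its own background. Some import genes also lie on the chromosomes of the targeted genes, where the strain background is linked to the knockout. Tomm22 lies 1.34 Mb and Samm50 3.0 Mb from Mrtfa on chromosome 15, while Timmdc1 lies 25.08 Mb and Tomm70a 43.7 Mb from Mrtfb on chromosome 16. Their log2 fold changes, -0.41, -0.26, -0.63 and -0.38 in that order, lie within the range of the other import genes.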

How the data were processed

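Reads counted per gene are the unit of the deposited tables. The authors made these raw counts with HTSeq on mm10, per the submitters' processing notes, and the notes also list DESeq 1.10.1. No source used here gives the aligner, the annotation release, the strand setting or the handling of reads that match several places. Gene symbols, positions and exon lengths came from GENCODE M21, also on mm10, where 42462 of 43346 identifiers were found, and 0 rows named no gene. Near-identical stretches were found with blastn 2.17.0.

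All genes were fitted together in edgeR 4.0.16 (R 4.3.3) and tested by quasi-likelihood (filterByExpr defaults, TMM factors, robust estimation, no covariate, n = 2 per group), with Benjamini-Hochberg adjustment over all 16009 genes tested and a threshold of 0.05. Levels are TMM-adjusted CPM, and 3 counts in a library equal 0.106 to 0.184 CPM. CPM per kilobase divides by the total exon length, and fold changes are on the log2 scale with the SE of the fit. Alternatives covered other scaling factors, other filters, DESeq2 1.42.0, limma-voom (limma 3.58.1), a replicate block, removal of mitochondrially encoded and erythroid genes, and leaving out each library. A crossed replicate block and the addition of pseudogene counts were added after seeing the data. The test was checked on simulated counts with changes larger than that of any import gene. Changes of the size seen in the import genes were not simulated.

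Whether each library is a separate animal is not labelled, so p-values measure only the spread between libraries, and that spread may be technical. The members and lists were chosen with earlier results of these data known. Members were described by library if past a threshold, at an unadjusted p under 0.05, extreme in level within their role, part of a related pair, or among the 3 most positive fold changes, and the remaining members are given too. Other import genes were named if past a threshold or among the 6 with the smallest p. Promoter windows came from RefSeq on GRCm38.p6, and no protein sequence was used.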

Additional observations from a re-analysis of the deposited data

How the results depend on the processing

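Across 16 alternative settings no fold change of a tested import gene turned its direction and no import gene passed the threshold as higher. The count of all genes past the threshold, 12, was 1514 with no filter, 532 with DESeq2 and between 2 and 2795 on leaving out 1 library. The count of import genes lower, 0, was 9 with no filter, 2 with DESeq2 and between 0 and 11 on leaving out 1 library: 11 without double knockout library 1, 5 without library 2 and 0 without either wild type library. Where a group was left with 1 library, that library was assumed to vary like the other group. The median of the import genes, -0.39, was -0.32 with no composition factors and between -0.50 and -0.32 on leaving out 1 library. That of the other import genes, -0.23, was -0.16 with no composition factors and between -0.29 and -0.17 on leaving out 1 library. Without composition factors the median of all genes tested was 0.08. The cause of these differences was not tested.

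The titles give both groups the numbers 1 and 2, but deviations of same-numbered libraries correlated at -0.105, so the numbers are not taken to pair them. With the number as a replicate block 2 genes of all passed the threshold and 0 import genes did. With the crossed pairing, added after seeing the data, 3 genes of all and 0 import genes passed. Depth limits Timm8a1 and Timm10b, which had under 50 counts in at least 1 library, and Tomm6, Tomm20l and Timm8a2, which were not tested.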
